A study of Mus musculus with 12 samples.

Results

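A set of 10 genes of the epithelial-mesenchymal transition (EMT) were followed through the leukemic and normal mouse bone marrow samples, out of 24028 genes counted. They are 6 transcription factors (Zeb1, Zeb2, Snai1, Snai2, Snai3 and Twist1) and 4 genes that such factors are known to control (Vim, Fn1, Cdh1 and Cdh2). The 10 members were picked by name, through their NCBI gene IDs, and all 10 have a row in both deposited count tables. In all, 12 RNA-seq libraries of C57BL/6 bone marrow cells were compared, 3 in each of 4 groups. The iMLL-ENL total group is leukemic cells of unsorted marrow from mice that carry a doxycycline-inducible knock-in of the leukemia fusion MLL-ENL and that received doxycycline until they had acute leukemia. The B220 HIGH and B220 LOW groups are leukemic cells of that genotype and treatment, sorted for a high or a low surface level of B220, the CD45 isoform best known from B cells. The wt LSK group is marrow of wild type/control mice from which mature lineages were removed and c-Kit and Sca-1 positive cells sorted, a gate that holds stem cells and early progenitors. Doxycycline is named for the iMLL-ENL mice alone. Ages, the promoter that drives the fusion and the mouse behind each library are not stated in the labels, and 3 animals are stated per genotype.

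In an EMT, epithelial cells loosen their junctions and take on a migratory, mesenchymal form. ZEB, SNAIL and TWIST factors drive it by binding E-box motifs: the zinc-finger factors repress Cdh1, which encodes the junction protein E-cadherin, and mesenchymal genes such as Vim, Fn1 and Cdh2 are switched on along the way. Blood cells use several of these factors without passing through an EMT. Zeb2 is needed for normal hematopoietic differentiation in the mouse, Zeb1 for T cell development in the mouse, and vimentin is a standard cytoskeletal protein of leukocytes.

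The ZEB and SNAIL zinc fingers read the run CACCT, which on the opposite strand appears as AGGTG, and the core of their E-box is CACCTG. Promoters from RefSeq (GRCm38.p6) were at hand for 4 of the 10 members, and 3 are shown because Vim and Zeb2 both rose in iMLL-ENL total marrow while Snai1 was next to silent in every group. Each is the 250 bases before the annotated start, 5′ to 3′ on the gene's strand, with any CACCT or AGGTG in capitals.
Vim, chr2:13574061-13574310, plus strand: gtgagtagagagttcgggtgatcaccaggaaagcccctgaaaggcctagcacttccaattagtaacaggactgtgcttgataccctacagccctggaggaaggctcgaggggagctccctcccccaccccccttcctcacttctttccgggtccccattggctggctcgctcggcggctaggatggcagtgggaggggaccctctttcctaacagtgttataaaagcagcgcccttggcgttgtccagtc
Zeb2, outermost start, chr2:45117443-45117692, minus strand: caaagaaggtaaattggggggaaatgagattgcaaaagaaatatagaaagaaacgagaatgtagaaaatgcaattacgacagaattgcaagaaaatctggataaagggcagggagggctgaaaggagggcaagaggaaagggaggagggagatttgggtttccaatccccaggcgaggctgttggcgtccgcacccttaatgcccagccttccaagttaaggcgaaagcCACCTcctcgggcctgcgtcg
Snai1, chr2:167537945-167538194, plus strand: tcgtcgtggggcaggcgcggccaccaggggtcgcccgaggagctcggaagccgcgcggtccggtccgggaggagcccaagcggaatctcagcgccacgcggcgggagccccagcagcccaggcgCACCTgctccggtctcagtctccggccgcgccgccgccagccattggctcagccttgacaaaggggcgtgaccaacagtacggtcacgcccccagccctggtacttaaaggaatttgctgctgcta
The Vim window holds no such run. The Zeb2 window holds 1, which begins 21 bases before the start, and the Snai1 window holds 1, which begins 126 bases before the start and is part of a CACCTG. Of 32851 promoter windows of this length, 46% hold CACCT or AGGTG, 17.2% hold CACCTG or CAGGTG and 66.2% hold CANNTG, so a match of this kind is common. Both strands were searched, and CACCTG contains CACCT.

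Library totals were 18001563 to 22706882 counts in iMLL-ENL total, 10921521 to 20069503 in B220 HIGH, 13441696 to 16626820 in B220 LOW and 18227843 to 19607722 in wt LSK. Levels are CPM over the library total, and per kilobase of the deposited gene width where genes are compared with each other. The deposited tables hold iMLL-ENL total with wt LSK and B220 HIGH with B220 LOW, so tests were run within each pair and levels across the pairs are set side by side with no test. Between iMLL-ENL total and wt LSK the sort genes followed the labels. Kit averaged 123 ± 32.0 CPM in iMLL-ENL total and 1161 ± 164 CPM in wt LSK (SD, n = 3 each). Ly6a, which encodes Sca-1, averaged 1.81 ± 0.372 CPM in iMLL-ENL total and 53.3 ± 25.7 CPM in wt LSK. In B220 HIGH, Kit averaged 29.8 ± 19.5 CPM, but Ly6a averaged 101 ± 159 CPM and ran from 6.88 to 285 CPM. In B220 LOW, Kit averaged 41.6 ± 28.0 CPM and Ly6a 1.84 ± 1.29 CPM. Gene counts cannot separate B220 from the other CD45 isoforms of Ptprc. The wt LSK library 2 stood apart from its group: its summed B lineage markers were 272 CPM, against 52.7 and 49.1 CPM in wt LSK libraries 1 and 3, and results are given without it where they move. Genotype, treatment and sort all differ between iMLL-ENL total and wt LSK and cannot be told apart, and in bulk RNA fewer cells of a type and less RNA per cell cannot be told apart either.

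The iMLL-ENL total marrow had far less Zeb1 RNA, and more Zeb2, Vim and Fn1 RNA, than wt LSK cells. By edgeR's quasi-likelihood test, called at a Benjamini-Hochberg adjusted p under 0.05, 4 of the 10 members changed: Zeb2, Vim and Fn1 rose and Zeb1 fell. Cdh1 was tested and not called, and Snai1, Snai2, Snai3, Twist1 and Cdh2 had too few counts for this fit. Of all 13811 genes tested in this comparison, 30.6% were called, 15.5% as higher and 15.1% as lower. The 4 changed members had libraries that did not overlap between the groups, which held for 48.5% of all genes tested, 19% as higher and 29.5% as lower. The same 4 members were called under all 12 alternative settings, each single library left out included, and also with the replicate number as a block, which called 29.3% of all genes. Leaving out wt LSK library 2 gave log2 fold changes of -5.55 for Zeb1, 0.83 for Zeb2, 1.65 for Vim and 7.22 for Fn1.

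**Figure D1:**
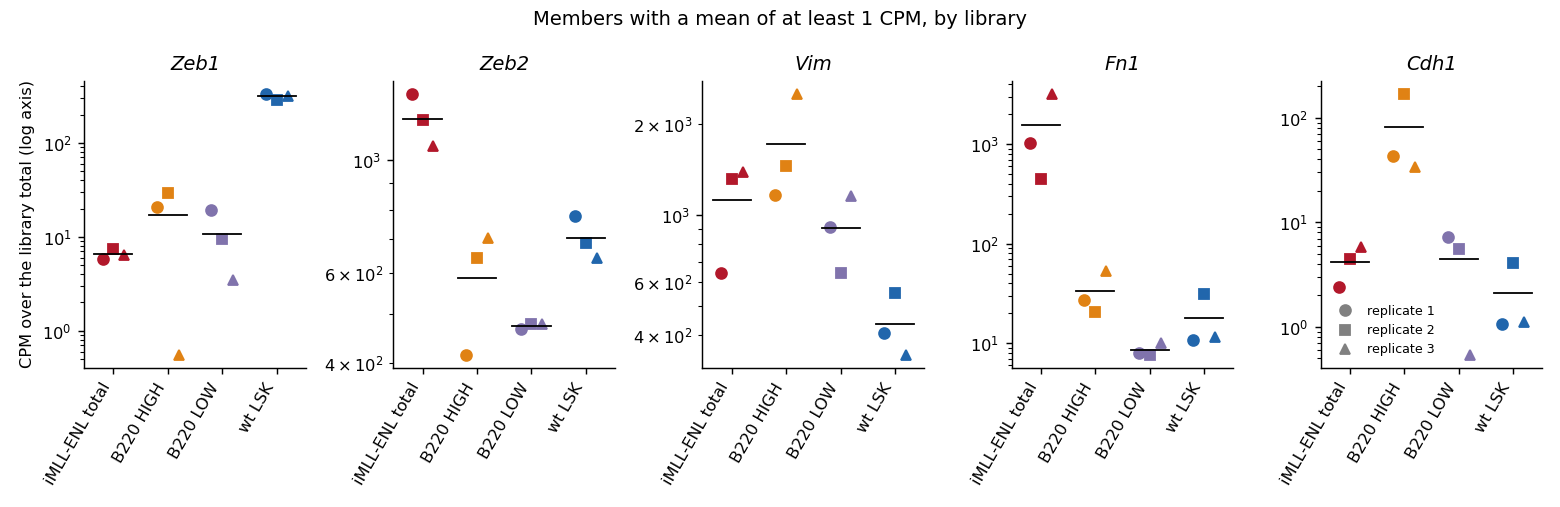
CPM over the library total on a log axis for the 5 members with a mean of at least 1 CPM, 1 panel per gene with its own axis; circles, squares and triangles are replicates 1, 2 and 3 of iMLL-ENL total, B220 HIGH, B220 LOW and wt LSK, and the black line is the group mean. Zeb1 is at 29.5 CPM or less in each leukemic library and at 289 CPM or more in each wt LSK one, Fn1 is at 442 CPM or more in iMLL-ENL total and no higher than 52.8 CPM elsewhere, and Cdh1 is at 34.1 CPM or more in B220 HIGH and no higher than 7.20 CPM elsewhere.

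Zeb1 (NCBI gene 21417, chromosome 18, bases 5591327 to 5775468, plus strand, GRCm38.p6) encodes a zinc-finger E-box repressor. It was at 5.79, 7.44 and 6.43 CPM in iMLL-ENL total, against 331, 289 and 315 CPM in wt LSK. All 3 leukemic libraries lay far under the lowest normal one. The log2 fold change was -5.42 (SE 0.22, edgeR adjusted p = 8.55e-06), or 42.8-fold lower, and its p was number 7 from the smallest of all genes tested. A larger change in either direction was found in 4.74% of the genes tested. The sorted leukemic cells were also low in Zeb1, with 20.6, 29.5 and 0.556 CPM in B220 HIGH and 19.4, 9.52 and 3.49 CPM in B220 LOW. Each of these 6 values was far below the lowest wt LSK library, and replicate 3 was the lowest of its group in both sorts. Between the sorts the ranges overlapped, with a log2 fold change of 0.70 for B220 HIGH against B220 LOW (SE 1.09, edgeR adjusted p = 0.952) whose sign turned under some settings. Zeb1 shares 198 of its 10266 exon bases with Gm10125 on the other strand, and the kit did not keep strand. Gm10125 itself had 0 counts in iMLL-ENL total and 92 counts over the wt LSK libraries, beside Zeb1 counts of 405 in iMLL-ENL total and 17600 in wt LSK.

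Zeb2 (gene 24136, chromosome 2, bases 44983512 to 45117442, minus strand) encodes the paralog of Zeb1 and moved the other way. It was at 1347, 1200 and 1067 CPM in iMLL-ENL total, against 776, 689 and 643 CPM in wt LSK. The lowest leukemic library stood above the highest normal one. Zeb2 rose 1.90-fold, a log2 fold change of 0.92 (SE 0.19, edgeR adjusted p = 0.0067). The sorted cells did not carry this level: Zeb2 was at 415.5, 642.5 and 705 CPM in B220 HIGH and 466.5, 476.3 and 476.6 CPM in B220 LOW. The 3 B220 LOW libraries lay within a narrow band, below every wt LSK library, and the B220 HIGH libraries ran from below that band into the wt LSK range. The difference between the sorts was a log2 fold change of 0.38, not called (SE 0.29, edgeR adjusted p = 0.873). Zeb2 shares exon bases with Zeb2os on the other strand, 653 of 19942. Zeb2os was at 14.3, 12.9 and 12.9 CPM in iMLL-ENL total, against 4.62, 3.84 and 5.20 CPM in wt LSK, small beside Zeb2 in both groups.

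Set on a per-kilobase scale, the 2 ZEB genes shared the RNA about evenly in normal cells and not at all evenly in leukemic ones. Zeb1 made up 0.766%, 1.10% and 1.07% of the summed Zeb1 and Zeb2 CPM per kilobase in iMLL-ENL total, against 43.3%, 43.0% and 46.8% in wt LSK. In the sorted cells its share was 8.17%, 7.60% and 0.141% in B220 HIGH and 6.94%, 3.46% and 1.30% in B220 LOW. No leukemic library came near the wt LSK share. The summed ZEB level was 87.9 ± 10.1 CPM per kilobase in iMLL-ENL total and 91.1 ± 6.71 in wt LSK (SD, n = 3 each), a difference smaller than either SD. It was 44.6 ± 10.4 CPM per kilobase in B220 HIGH and 35.6 ± 0.670 in B220 LOW.

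**Figure D2:**
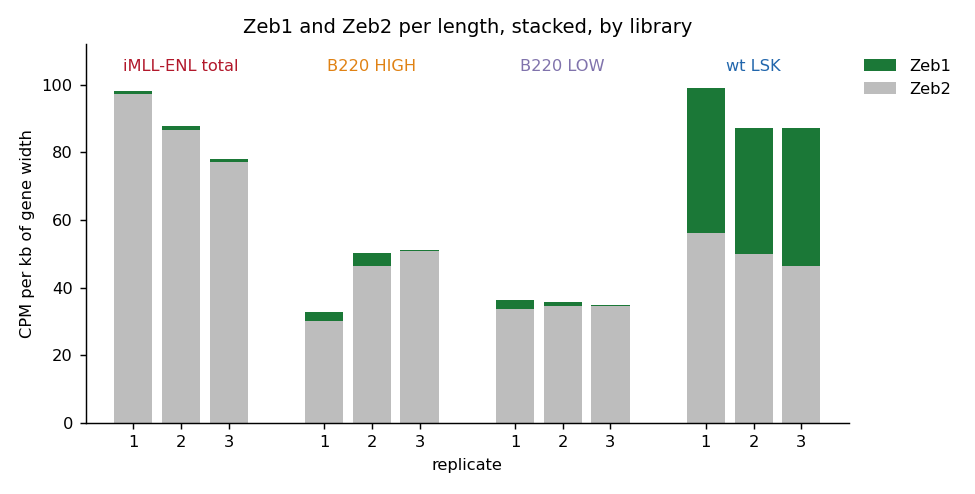
Stacked bars of Zeb2 (grey) and Zeb1 (green) in CPM per kilobase of gene width, 1 bar for each library of iMLL-ENL total, B220 HIGH, B220 LOW and wt LSK. Zeb1 supplies at most 8.17% of the sum in any leukemic library, against 43.0% to 46.8% in wt LSK.

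Of the SNAIL and TWIST factors, Twist1, Snai1 and Snai2 were at or near 0 in every group, while Snai3 averaged 1.99 CPM in B220 LOW. Twist1 (gene 22160, chromosome 12), a bHLH factor of the embryonic mesoderm and neural crest, had 0 counts in all 12 libraries, which allows at most 0.0482 CPM in iMLL-ENL total, 0.0591 in B220 HIGH, 0.0662 in B220 LOW and 0.0531 in wt LSK (3 counts over each group's total). Snai2 (gene 20583, chromosome 16), which encodes SLUG, a factor active in normal hematopoietic progenitors, had 0 counts in all 9 leukemic libraries, against 2, 5 and 6 counts in wt LSK. Set against the group floor, Snai2 was 4.78-fold lower in iMLL-ENL total than in wt LSK, a figure that leaves out counting error in the wt LSK reads. With no filter on low counts its log2 fold change was -5.15, not called (edgeR adjusted p = 0.096). Snai2 was thus seen in the normal libraries alone, at a depth of a few reads.

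Snai1 (gene 20613, chromosome 2, bases 167538195 to 167542814, plus strand), which encodes SNAIL, had 0, 0 and 5 counts in iMLL-ENL total, 3, 6 and 5 in B220 HIGH, 1, 2 and 0 in B220 LOW, and 0, 0 and 1 in wt LSK. B220 HIGH was the single group with reads in all 3 libraries. The ratio of summed counts over totals was 4.17 for B220 HIGH against B220 LOW, with a 95% counting interval of 1.16 to 22.6, and 4.53 for iMLL-ENL total against wt LSK, with an interval of 0.507 to 214. These intervals cover counting error and not the spread between libraries. Snai3 (gene 30927, chromosome 8), another SNAIL paralog, had 6, 18 and 0 counts in iMLL-ENL total, 1, 59 and 0 in B220 HIGH, 57, 30 and 0 in B220 LOW, and 0, 8 and 1 in wt LSK. No group was uniform, and replicate 3 of each leukemic group had 0 counts. Its highest library reached 3.73 CPM, and the log2 fold change of B220 HIGH against B220 LOW was -0.83 with a SE of 1.99 (edgeR adjusted p = 0.972). Without B220 HIGH library 2 it was -5.34, and over the 12 alternatives it ran from -5.34 to -0.10, never called.

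Vim (gene 22352, chromosome 2, bases 13574311 to 13582826, plus strand) encodes vimentin, the intermediate filament of mesenchymal cells and leukocytes. It was at 643, 1317 and 1390 CPM in iMLL-ENL total, against 407, 553 and 344.5 CPM in wt LSK. The groups did not overlap, although iMLL-ENL total library 1 came close to wt LSK library 2. Vim was 2.88-fold higher, with a log2 fold change of 1.53 (SE 0.33, edgeR adjusted p = 0.00866). Vim was at 1164, 1456 and 2510 CPM in B220 HIGH, against 911, 640.5 and 1156 CPM in B220 LOW, so that the lowest B220 HIGH library stood just above the highest B220 LOW one. That difference, a log2 fold change of 0.997, was not called (SE 0.38, edgeR adjusted p = 0.655; 0.0772 in the fit with the replicate block). Every leukemic library had more Vim than every wt LSK library. Per kilobase, Vim was the most abundant of the 10 genes in all 4 groups and ranked 32 of 24028 genes in iMLL-ENL total, 34 in B220 HIGH, 67 in B220 LOW and 78 in wt LSK.

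Fn1 (gene 14268, chromosome 1, bases 71585473 to 71653280, minus strand) encodes fibronectin, a matrix glycoprotein that integrins bind. It was at 1017, 442 and 3188 CPM in iMLL-ENL total, against 10.7, 31.3 and 11.5 CPM in wt LSK. Even the lowest leukemic library stood far above the highest normal one, and the 3 leukemic libraries differed widely among themselves. Fn1 was 99.7-fold higher, with a log2 fold change of 6.64 (SE 0.90, edgeR adjusted p = 0.00139). Without iMLL-ENL total library 3 it was 5.45 (adjusted p = 0.00109) and without wt LSK library 2 it was 7.22 (adjusted p = 0.00404). Of the genes tested, 3.10% had a larger change in either direction. The sorted leukemic cells did not have this level, with 26.9, 20.8 and 52.8 CPM in B220 HIGH, against 7.99, 7.66 and 10.2 CPM in B220 LOW. Fn1 therefore ranked 217 of 24028 genes per kilobase in iMLL-ENL total, 9506 in B220 HIGH, 11636 in B220 LOW and 11331 in wt LSK. Within the sorts the groups did not overlap, with a log2 fold change of 2.03 (SE 0.52) that was not called by edgeR (adjusted p = 0.377, and 0.122 with the replicate block) and was called by DESeq2 (adjusted p = 0.0124).

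Monocyte and macrophage markers were set beside Fn1 and Vim, and they followed Fn1 only in part. The summed level of the 13 markers was 3538, 3863 and 11210 CPM in iMLL-ENL total, 1336, 4391 and 6419 CPM in B220 HIGH, 750, 569 and 1210 CPM in B220 LOW, and 322, 643 and 344 CPM in wt LSK. In each of the 4 groups the library with the most Fn1 also had the most of these markers, which was replicate 3 of iMLL-ENL total, B220 HIGH and B220 LOW and replicate 2 of wt LSK. Below the top library the order did not always hold. In iMLL-ENL total, library 2 had more of the markers than library 1 but less Fn1, 442 against 1017 CPM. Nor did the order hold across groups. B220 HIGH library 3 had 6419 CPM of the markers and 52.8 CPM of Fn1, while iMLL-ENL total library 1 had 3538 and 1017 CPM. Of the 13 markers, 12 averaged at least 1 CPM in iMLL-ENL total, 12 in B220 HIGH, 11 in B220 LOW and 9 in wt LSK. C1qa, a complement gene of resident macrophages, was at 0 in B220 HIGH, B220 LOW and wt LSK, and C1qb was at 0 in B220 LOW. Their part in the Fn1 and Vim differences was not tested. Marrow stroma markers, another source of fibronectin, summed to 45.9, 15.0 and 10.7 CPM over 8 genes in iMLL-ENL total, against 57.2, 57.3 and 72.9 CPM in wt LSK. Pdgfrb alone was at 43.5, 5.33 and 7.27 CPM in iMLL-ENL total and 50.5, 53.9 and 62.8 CPM in wt LSK. The wt LSK sum is thus mostly 1 gene, and 2 of the 8 genes averaged at least 1 CPM there. In the sorts the stroma markers summed to 24.8, 5.88 and 3.03 CPM in B220 HIGH and 17.4, 3.27 and 2.83 CPM in B220 LOW, and their part was not tested.

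**Figure D3:**
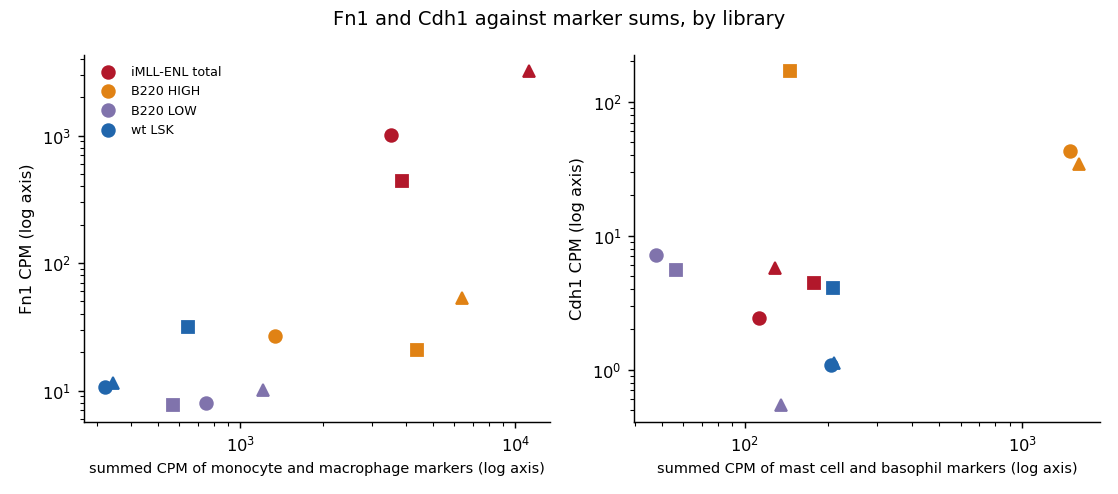
Fn1 in CPM against the summed CPM of 13 monocyte and macrophage markers (left) and Cdh1 against the sum of 9 mast cell and basophil markers (right), on log axes, 1 point per library; circles, squares and triangles are replicates 1, 2 and 3, in red for iMLL-ENL total, orange for B220 HIGH, purple for B220 LOW and blue for wt LSK. Replicate 3 of iMLL-ENL total has both the highest Fn1, 3188 CPM, and the highest monocyte and macrophage sum, 11210 CPM, and replicate 2 of B220 HIGH has the most Cdh1, 169 CPM, with 145 CPM of the mast cell and basophil markers.

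Cdh1 (gene 12550, chromosome 8, bases 106603350 to 106670247, plus strand) encodes E-cadherin, the epithelial junction protein and the classic target of ZEB and SNAIL repression. It was at 2.41, 4.44 and 5.77 CPM in iMLL-ENL total, against 1.07, 4.06 and 1.12 CPM in wt LSK, and the groups overlapped through wt LSK library 2. The log2 fold change was 1.20 (SE 0.67, edgeR adjusted p = 0.211), and without that library it was 2.01 (adjusted p = 0.0781). Cdh1 was thus low in both groups, and its rise was not called. The ratio of summed counts over totals was 2.055 for iMLL-ENL total against wt LSK, with a counting interval of 1.645 to 2.579. That interval leaves out the spread between libraries, which the edgeR test includes. What limited the call was not tested. Any link to the fall of Zeb1 was not tested.

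In B220 HIGH cells Cdh1 was at 43.1, 169 and 34.1 CPM, against 7.20, 5.58 and 0.541 CPM in B220 LOW. The lowest B220 HIGH library was above every library of the other 3 groups. The log2 fold change of 4.31 (SE 0.97, 19.9-fold higher) was larger in size than that of all but 0.876% of the genes tested, but edgeR did not call it (adjusted p = 0.319). In the fit with the replicate block it was called, at 4.43 (SE 0.67, adjusted p = 0.0396), and so it was by DESeq2 (adjusted p = 4.63e-06). Over the 12 alternatives its adjusted p ran from 4.63e-06 to 0.943, and without B220 HIGH library 2 the log2 fold change was 3.20 (adjusted p = 0.644). Cdh1 did not mirror Zeb1 between these libraries: B220 HIGH library 2 had the highest level of both genes in its group, 169 CPM of Cdh1 and 29.5 CPM of Zeb1.

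The 6 epithelial markers summed to 2.47, 11.1 and 3.24 CPM in B220 HIGH, against 8.97, 0.223 and 2.05 CPM in B220 LOW. Krt8, Krt19 and Cldn4 were at 0 in B220 HIGH, while Epcam was at 1.37, 11.01 and 3.09 CPM in B220 HIGH, against 1.83, 0 and 0 CPM in B220 LOW, highest in the library with the most Cdh1. Among the 22 epithelial genes of the pathway list, 11 were tested between the sorts and edgeR called 0, with a median log2 fold change of 0.88. Tjp1 was at 35.7, 10.3 and 23.2 CPM in B220 HIGH, against 2.42, 2.53 and 8.18 CPM in B220 LOW, with no overlap (adjusted p = 0.484). Mast cell and basophil markers were high in 2 of the 3 B220 HIGH libraries, with sums of 1491, 145 and 1605 CPM, against 47.6, 56.4 and 135 CPM in B220 LOW, and the library low in them had the most Cdh1. Fcer1a and Tpsb2 of that list were at 0 in both sorts. The part of epithelial, mast or basophil cells in the Cdh1 difference was not tested.

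Cdh2 (gene 12558, chromosome 18, bases 16588877 to 16809246, minus strand), which encodes N-cadherin, the cadherin gained in a textbook EMT, was next to absent. It had 0 counts in iMLL-ENL total and in B220 LOW, 0, 0 and 1 in B220 HIGH, and 7, 0 and 13 in wt LSK. Set against the group floor, Cdh2 was 7.36-fold lower in iMLL-ENL total than in wt LSK. That figure leaves out counting error in the wt LSK reads, and 1 of the 3 wt LSK libraries also had none. Its counts were too few for the main fit. With no filter on low counts its log2 fold change was -5.77, not called (edgeR adjusted p = 0.102).

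**Figure D4:**
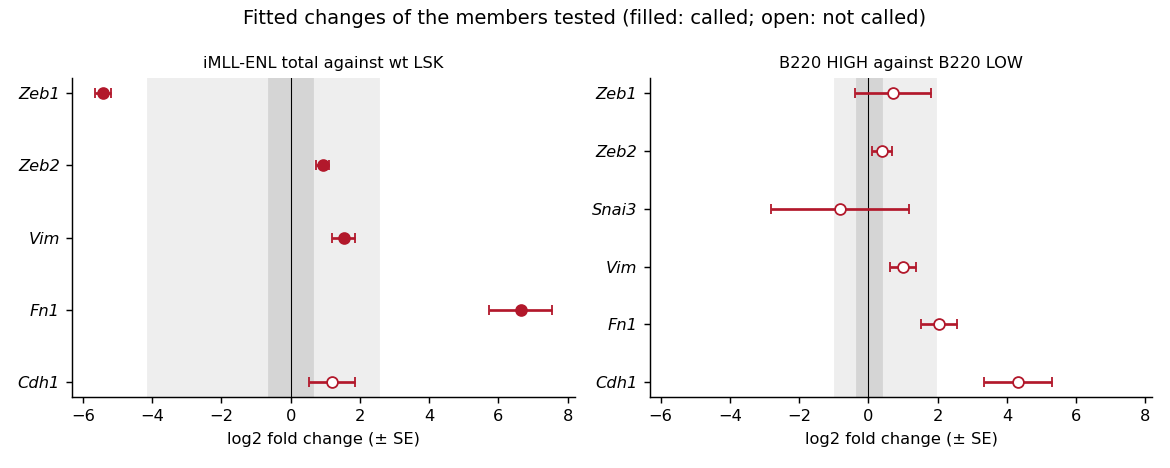
Log2 fold changes of the tested members with their standard errors, for iMLL-ENL total against wt LSK and for B220 HIGH against B220 LOW; filled points were called by edgeR at an adjusted p under 0.05. Light and dark shading cover the 5th to 95th and the 25th to 75th percentile of all genes tested: Zeb1 at -5.42 and Fn1 at 6.64 lie outside the light band in the first comparison, and Cdh1 at 4.31 and Fn1 at 2.03 in the second.

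Between B220 HIGH and B220 LOW as a whole, 6 members were tested and 0 were called, and edgeR called 0% of all 12564 genes tested, with 880 of them at an unadjusted p under 0.05. Vim, Fn1 and Cdh1 were each higher in B220 HIGH with no overlap between the libraries, a pattern in that direction shown by 6.2% of all genes tested. With the replicate block, 1 member (Cdh1) and 0.629% of all genes were called, 0.581% higher and 0.0478% lower. Zeb1, Zeb2 and Snai3 overlapped between the sorts, and Snai1, Snai2, Twist1 and Cdh2 had too few counts for the main fit.

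Per kilobase, the order of the members differed between groups. In iMLL-ENL total it was Vim at 609 CPM per kilobase, Fn1 at 148, Zeb2 at 87.0, Cdh1 at 0.953 and Zeb1 at 0.849. In B220 HIGH it was Vim at 932, Zeb2 at 42.5, Cdh1 at 18.6, Fn1 at 3.19 and Zeb1 at 2.19 CPM per kilobase. Fn1 thus stood behind Zeb2 and Cdh1 in the sorted B220 HIGH cells. In B220 LOW Vim at 492 and Zeb2 at 34.2 CPM per kilobase were followed by Zeb1 at 1.40, Snai3 at 1.25, Cdh1 at 1.01 and Fn1 at 0.820. In wt LSK it was Vim at 237, Zeb2 at 50.8, Zeb1 at 40.4, Fn1 at 1.70 and Cdh1 at 0.473. Vim led everywhere, and the second place went to Fn1 in iMLL-ENL total and to Zeb2 in the other 3 groups. Across the groups, the mean CPM of Zeb1 ran, from low to high, from iMLL-ENL total through B220 LOW and B220 HIGH to wt LSK, and the last step alone was free of overlap between neighbours. From high to low, the order for Zeb2 was iMLL-ENL total, wt LSK, B220 HIGH and B220 LOW, and only the first step was free of overlap. For Vim it was B220 HIGH, iMLL-ENL total, B220 LOW and wt LSK, with no overlap only at the last step. For Fn1 it was iMLL-ENL total, B220 HIGH, wt LSK and B220 LOW, where B220 HIGH and wt LSK overlapped, and for Cdh1 it was B220 HIGH, B220 LOW, iMLL-ENL total and wt LSK, with no overlap only at the first step.

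Over the 12 libraries, the genes whose log2(CPM + 1) followed each member most closely were found among 13173 genes with a mean of at least 1 CPM. For Zeb1 they were Akap7, Zmynd11 and Rab6b, with Pearson r of 0.967, 0.967 and 0.964. Rab6b averaged 0.929 CPM in iMLL-ENL total, 3.85 in B220 HIGH, 1.58 in B220 LOW and 39.0 in wt LSK. For Vim they included Rbms1 and Pik3cb, at 0.966 and 0.964. Pik3cb, which encodes a catalytic subunit of PI3-kinase, averaged 112.5 CPM in iMLL-ENL total, 209.7 in B220 HIGH, 97.3 in B220 LOW and 32.8 in wt LSK. For Fn1 they were Ctns, Xdh and Reep3, at 0.987, 0.963 and 0.955. Ctns, the lysosomal cystine transporter, averaged 39.1 CPM in iMLL-ENL total, 13.7 in B220 HIGH, 8.63 in B220 LOW and 11.6 in wt LSK, a far smaller span than that of Fn1.

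For Zeb2 the nearest genes were Proz, Apbb1ip and Avpr2, with r of 0.922, 0.918 and 0.918, and for Cdh1 they were Csf2rb2, Wnt5b and Ccdc32, at 0.919, 0.919 and 0.905. Csf2rb2, a beta subunit of the mouse IL-3 receptor, averaged 55.0 CPM in iMLL-ENL total, 222 in B220 HIGH, 29.2 in B220 LOW and 20.3 in wt LSK. For B220 HIGH against B220 LOW its log2 fold change was 3.002 (SE 0.34, edgeR adjusted p = 0.0649), and it was called with the replicate block (adjusted p = 0.00234). Among the members, r was 0.838 between Zeb2 and Fn1, -0.797 between Zeb1 and Vim and 0.630 between Vim and Cdh1. Each r is a description: the 12 points share their group, library and depth.

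Around the members, 132 further genes of the same pathways were read as 8 lists. In iMLL-ENL total against wt LSK, 98 of them were tested, of which 16 rose and 18 fell, or about the 15.5% and 15.1% found over all genes. Their median log2 fold change was -0.29, against 0.05 over all genes tested. Of 14 other EMT transcription factors, 6 were tested and none was called (edgeR, median -0.13). Klf4, an epithelial and myeloid factor, was at 57.2 ± 54.8 CPM in iMLL-ENL total and 27.1 ± 16.2 CPM in wt LSK (SD, n = 3 each).

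Of 17 corepressors and chromatin partners of ZEB and SNAIL, 15 were tested, and 2 fell and 13 were not called (median -0.15). Both that fell belong to the LSD1-CoREST complex, which SNAIL recruits, but the list's other CoREST gene did not fall. Rcor1 was at 96.9 ± 14.0 CPM in iMLL-ENL total and 85.3 ± 8.45 CPM in wt LSK (log2 fold change 0.33, edgeR adjusted p = 0.247). Hdac1 and Hdac2 were not called either (adjusted p = 0.0662 and 0.424). With the replicate block, Chd4 was called lower as well (adjusted p = 0.0334). Kdm1a, which encodes the demethylase LSD1, was at 49.2 ± 2.39 CPM in iMLL-ENL total and 120.5 ± 15.6 CPM in wt LSK (log2 fold change -1.13, SE 0.18, edgeR adjusted p = 0.00214). Rcor2, which encodes a CoREST protein, was at 0.485 ± 0.126 CPM in iMLL-ENL total and 7.54 ± 2.74 CPM in wt LSK (log2 fold change -3.78, SE 0.53, adjusted p = 0.00122).

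Of 22 genes of TGF-beta and SMAD signalling, the pathway that induces EMT, 20 were tested: 3 rose, 4 fell and 13 were not called (median -0.29). Smad3, a receptor-activated SMAD, was at 24.0 ± 3.75 CPM in iMLL-ENL total and 126.5 ± 6.47 CPM in wt LSK (log2 fold change -2.25, SE 0.21, edgeR adjusted p = 0.000191). Tgfbr3, the co-receptor betaglycan, was at 1.24 ± 1.26 CPM in iMLL-ENL total and 55.8 ± 11.1 CPM in wt LSK (-5.38, SE 0.80, adjusted p = 0.00189). Without iMLL-ENL total library 2, the log2 fold change of Tgfbr3 was -6.51. Id2, an inhibitor of bHLH factors, was at 65.7 ± 33.4 CPM in iMLL-ENL total and 13.5 ± 7.51 CPM in wt LSK (2.46, SE 0.50, adjusted p = 0.00671), and 1.87 without iMLL-ENL total library 3.

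Of 20 mesenchymal and matrix genes, 15 were tested: 4 rose, 3 fell and 8 were not called, with a median of -1.44. The gelatinases of this list parted: Mmp2 was at 0.555 ± 0.282 CPM in iMLL-ENL total and 11.96 ± 4.21 CPM in wt LSK (log2 fold change -4.25, SE 0.53, edgeR adjusted p = 0.000706), and Mmp9, which neutrophils and monocytes also make, was at 7.09, 218 and 289 CPM in iMLL-ENL total, against 0.107, 0.494 and 0 CPM in wt LSK. Mmp9 was 9.91 higher on the log2 scale (SE 1.76, adjusted p = 0.00657), a call lost with limma-voom (adjusted p = 0.280), and the value was 11.60 without wt LSK library 2, 9.22 without iMLL-ENL total library 3 and 9.31 without wt LSK library 3. S100a4, a calcium-binding protein of fibroblasts and myeloid cells, was at 22.7, 103 and 26.0 CPM in iMLL-ENL total, against 2.63, 5.21 and 2.14 CPM in wt LSK (4.09, SE 0.69, adjusted p = 0.00329), and 3.05 without iMLL-ENL total library 2. Neutrophil markers, 12 in all, summed to 7246, 27460 and 19820 CPM in iMLL-ENL total and 1275, 2232 and 1548 CPM in wt LSK, and their part here was not tested.

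Of 22 epithelial genes, 13 were tested: 1 rose, 5 fell and 7 were not called (median -1.29). Those that fell included the tight junction genes Tjp1, Patj and F11r and the keratin gene Krt18. Not called were Tjp3 and Marveld2: the log2 fold change of Tjp3 was 1.21 (edgeR adjusted p = 0.0501) and that of Marveld2 was -0.63 (adjusted p = 0.258). Tjp1, which encodes ZO-1, was at 0, 0.333 and 0.0881 CPM in iMLL-ENL total, against 38.9, 14.0 and 36.3 CPM in wt LSK (log2 fold change -7.62, SE 0.88, edgeR adjusted p = 0.000494), and between -9.04 and -7.01 with 1 leukemic library left out. Patj, a scaffold of the Crumbs complex, was at 0.443 ± 0.338 CPM in iMLL-ENL total and 30.5 ± 4.31 CPM in wt LSK (-5.97, SE 0.53, adjusted p = 0.000147), and -6.74 without iMLL-ENL total library 2. Dsp, which encodes the desmosomal protein desmoplakin, was the 1 that rose, at 42.8, 101 and 143 CPM in iMLL-ENL total, against 1.56, 0.823 and 1.84 CPM in wt LSK (6.24, SE 0.57, adjusted p = 0.000172).

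Of 15 other cadherins and catenins, 10 were tested: 2 rose, 3 fell and 5 were not called (median -0.33). Afdn, which encodes the junction linker afadin, was at 10.7 ± 4.71 CPM in iMLL-ENL total and 51.2 ± 8.41 CPM in wt LSK (log2 fold change -2.11, SE 0.39, edgeR adjusted p = 0.00423). Ctnnd2, which encodes delta-catenin, had a log2 fold change of -3.41 (SE 0.84, edgeR adjusted p = 0.0157), and Cdh5, the endothelial cadherin, one of -3.42 (SE 0.84, adjusted p = 0.016). Both calls were lost without wt LSK library 2, at adjusted p of 0.066 for Ctnnd2 and 0.0704 for Cdh5. Without iMLL-ENL total library 1 the value of Ctnnd2 was -4.56, and without iMLL-ENL total library 2 that of Cdh5 was -4.46. Endothelial markers, 7 in all, of which Cdh5 is 1, summed to 108, 110 and 93.4 CPM in iMLL-ENL total, against 210, 237 and 220 CPM in wt LSK.

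Of 11 fibronectin receptors and related integrins, 10 were tested, and 3 rose and 7 were not called (median 0.38). Itgav, the alpha-v subunit, was at 150 ± 27.7 CPM in iMLL-ENL total and 87.3 ± 7.48 CPM in wt LSK (log2 fold change 0.94, SE 0.20, edgeR adjusted p = 0.00883). Itga5, the alpha subunit of the classic fibronectin receptor, rose by 0.80 (SE 0.21, adjusted p = 0.0194) and Itgb5 by 1.54 (SE 0.43, adjusted p = 0.0279). These 3 calls were lost under some settings: the adjusted p of Itgav was 0.0571 without wt LSK library 1 and 0.0502 without library 2, that of Itga5 was 0.0555 to 0.104 without any 1 wt LSK library and 0.0516 with library totals only, and that of Itgb5 was 0.0843 to 0.109 in the same way and 0.0916 without iMLL-ENL total library 3. Itga4, the most abundant of the list, was at 862 ± 96.6 CPM in iMLL-ENL total and 1358 ± 147 CPM in wt LSK. It was not called (log2 fold change -0.50, edgeR adjusted p = 0.0662), but was called lower with the replicate block (adjusted p = 0.0426). With that block, 4 genes of the list rose and 2 fell.

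Of 12 cytoskeletal partners of vimentin, 10 were tested: 3 rose, 1 fell and 6 were not called (median 0.65). Flna, the actin crosslinker filamin A, was at 890, 922 and 2140 CPM in iMLL-ENL total, against 328, 276 and 382 CPM in wt LSK (log2 fold change 2.17, SE 0.38, edgeR adjusted p = 0.00354), and 1.54 without iMLL-ENL total library 3. Rdx, which encodes radixin, rose by 1.05 (SE 0.30, adjusted p = 0.0295), a call lost without iMLL-ENL total library 1 (0.064) or any 1 wt LSK library (0.0682 to 0.122). Synm, which encodes the intermediate filament synemin, was at 0.436 ± 0.0972 CPM in iMLL-ENL total and 2.03 ± 0.416 CPM in wt LSK (-2.06, SE 0.63, adjusted p = 0.037). The Synm call was lost under 7 of the 12 alternatives, among them those without any 1 wt LSK library (0.0693 to 0.144), without iMLL-ENL total library 1 (0.0905) or 3 (0.0664), and with no filter on low counts (0.0806).

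**Figure D5:**
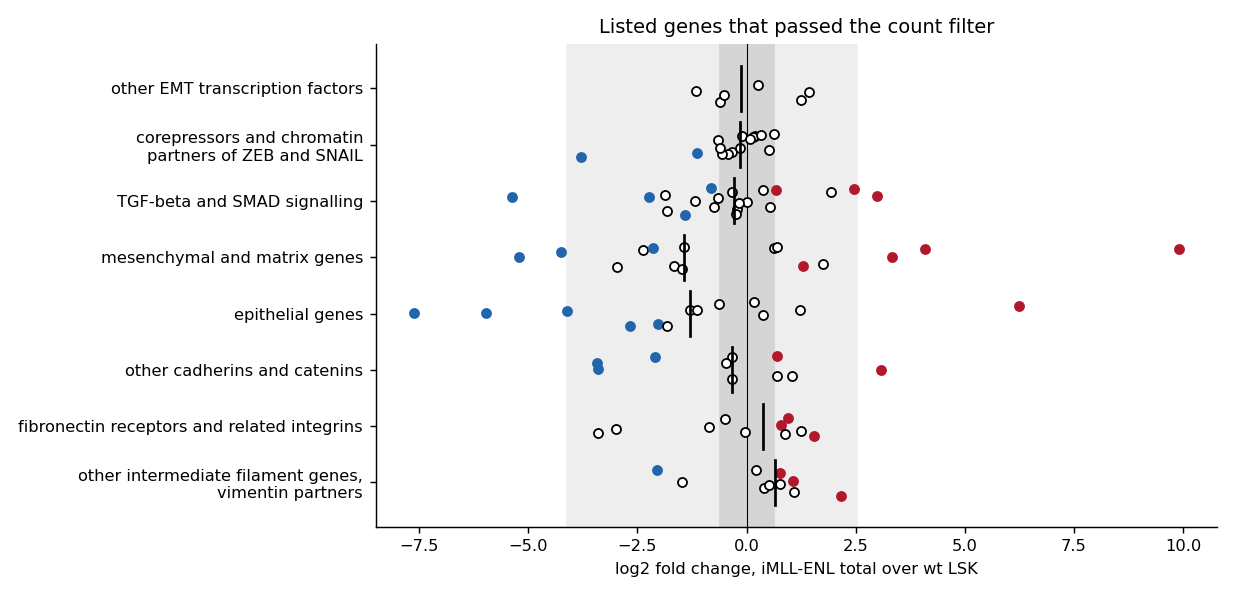
Log2 fold changes of the tested genes of the 8 pathway lists in iMLL-ENL total against wt LSK, 1 point per gene, with red for called higher, blue for called lower, open for not called and a black tick at each list's median. The shading covers the 25th to 75th (dark) and 5th to 95th (light) percentile of all 13811 genes tested. Mesenchymal and epithelial lists have the lowest medians, -1.44 and -1.29, and Tjp1 and Mmp9 lie at the ends.

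Between B220 HIGH and B220 LOW, 85 list genes were tested and edgeR called 0, with a median of 0.47 against -0.03 over all genes tested. With the replicate block, 2 were called, both higher in B220 HIGH. Cdh17, which encodes the liver-intestine cadherin, was at 67.8, 25.3 and 50.9 CPM in B220 HIGH, against 1.51, 0.744 and 2.95 CPM in B220 LOW (log2 fold change 4.79, SE 0.67, edgeR adjusted p = 0.117, and 0.00363 with the block). It was at 0.984 ± 0.356 CPM in iMLL-ENL total and 0.122 ± 0.108 CPM in wt LSK. Id2 was at 88.6, 124.5 and 120.5 CPM in B220 HIGH, against 32.7, 16.7 and 24.2 CPM in B220 LOW (2.26, SE 0.34, adjusted p = 0.126, and 0.0228 with the block). For both Cdh1 and Cdh17, the lowest B220 HIGH library was above every library of the other 3 groups.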

How the data were processed

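For RNA-seq, 12 libraries were made from PicoPure total RNA with an unstranded NuGen Ovation kit, per the labels. The deposited tables hold raw counts of reads per NCBI gene ID for 24028 genes, and a gene width in bases (unit: other), which served only for levels per kilobase. The second kind of deposited table holds a signal, deposited as counts over effective library sizes, which the values themselves show, and it was used only for that check. The submitters' processing notes name edgeR, GRCm38 and mm10, while aligner and counter are not stated in the sources used here. RefSeq symbols matched 23968 IDs and left 60 without a symbol.

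The tests were edgeR 4.0.16 quasi-likelihood F tests in R 4.3.3 (robust, TMM factors, filterByExpr with a minimum count of 10, two-sided, Benjamini-Hochberg adjustment over all genes tested, called under 0.05), fitted on the 3 libraries of each of both groups. Printed CPM use library totals of 10921521 to 22706882 counts. Floors are 3 counts over a group, and 95% intervals of ratios are exact binomial; both cover counting error only. Alternatives were RLE scaling, library totals only, DESeq2 1.42.0, limma-voom (limma 3.58.1), no filter, a replicate block and each library left out. The fits were tested on simulated data in which 200 genes were shifted. That is far fewer than the 4221 genes called in iMLL-ENL total against wt LSK. The shares found therefore hold for the simulated setting and need not hold for the real data. In iMLL-ENL total against wt LSK, the fit found 6.02% of genes shifted 2-fold, 49.1% shifted 4-fold and 88.7% shifted 8-fold. Its calls there numbered 101, with 14 false. In B220 HIGH against B220 LOW the shares found were lower, at 2.6% (2-fold), 36.7% (4-fold) and 65.1% (8-fold), with 5 false among 70 calls. A gene not called between the sorts can therefore still differ. P-values measure the spread between libraries, which the labels tie to no mouse.

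The labels share replicate numbers 1 to 3 between groups without saying what they mark. In the B220 sorts, each library's deviation from its group mean was correlated across genes with that of the library of the same number. The values were 0.397, 0.198 and 0.307, against -0.290 to 0.0307 for unlike numbers, and pairing was assumed on these data alone. The check cannot establish pairing: iMLL-ENL total library 1 and wt LSK library 3, of different genotypes, reached 0.144. The block stands beside a result whose call it changes.

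The members and lists were chosen with earlier results of these data known. Named were the 10 members, up to 3 called genes of each of 8 pathway lists by smallest p, and the 3 genes most correlated with each member of at least 1 CPM. In B220 HIGH against B220 LOW the rule was applied to the calls with the replicate block, chosen after seeing the data. Klf4, Itga4 and other list genes outside this rule were named after their values were seen. Of the 12 marker lists, 1 gene, Trac, is not analysed here. Some results are not reported here.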

Additional observations from a re-analysis of the deposited data

How the results depend on the processing

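For iMLL-ENL total against wt LSK, 4 members were called under each of the 12 alternatives, and of the single-gene results under these alternatives 276 kept their direction and their side of the threshold and 24 kept their direction and lost the call. With 1 library left out, 2636 to 4528 genes were called (4221 in the full fit), with 2658 without wt LSK library 1 and 2636 without library 3, and 22 to 42 list genes (34 in the full fit), with 22 without wt LSK library 1 and without library 2. With library totals only, 40.8% of calls were higher, against 50.6% with TMM, and the median of all genes moved by -0.15. For B220 HIGH against B220 LOW, where edgeR called 0 genes, DESeq2 called 232 genes, 2 members (Fn1 and Cdh1) and 6 list genes, limma-voom called 1 gene, and the test with no filter called 22 genes and 2 list genes. The replicate block gave 79 genes, 1 member and 2 list genes there, each with its value beside the result; of the single-gene results there, 82 kept their direction and side of the threshold, 11 came to be called and 3 turned. With 1 library left out, 0 to 96 genes (96 without B220 HIGH library 1, 3 without B220 LOW library 1), 0 to 4 list genes and 0 members were called. The log2 fold change of Zeb1 there turned to -0.35 with limma-voom and -0.12 with the replicate block, and ran between -0.06 (-0.059, without B220 HIGH library 2) and 1.33 (without B220 LOW library 1) with 1 library left out, and the cause was not tested. For iMLL-ENL total against wt LSK the same-numbered libraries correlated at 0.0164, 0.160 and -0.0358, so these share only a number. Not every library correlated best with its own. The replicate block gave 4048 calls there. Of the members and list genes named, it lost the calls of Synm (edgeR adjusted p = 0.103) and Cdh17 (0.0711, from 0.0456). It gained those of Itga4 (0.0426, from 0.0662) and Chd4 (0.0334, from 0.106). Low counts limit any statement on Snai1, Snai2, Snai3, Twist1 and Cdh2 to the floors, intervals and uncalled fits given.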

Other observations

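The hairpin genes of the miR-200 family, whose mature miRNAs repress Zeb1 and Zeb2, have rows in the count tables. Mir200a, Mir200b, Mir200c and Mir141 had 0 counts over the 12 libraries and Mir429 had 3. Such rows of a total RNA library do not measure mature miRNAs. Gm10125, which overlaps Zeb1 on the other strand, had 389 counts in B220 LOW replicate 3, or 23.4 CPM, and 0 in the other B220 LOW libraries, while Zeb1 was at 3.49 CPM in B220 LOW replicate 3. Grhl2, an epithelial transcription factor, was at 17.7, 0 and 0.910 CPM in B220 HIGH, against a mean of 0.483 ± 0.603 CPM in B220 LOW (SD, n = 3), and its 1 high library is not the one with the most Cdh1. Both genes were named after their values were seen.

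The other marker lists were summed per library as well. LSK and stem cell markers ran from 294.5 to 552 CPM in iMLL-ENL total, 545 to 831 in B220 HIGH, 259 to 335 in B220 LOW and 3884 to 4419 in wt LSK. Megakaryocyte markers ran from 9.64 to 18.8 CPM in iMLL-ENL total, 34.6 to 70.0 in B220 HIGH, 5.05 to 11.1 in B220 LOW and 342.5 to 410 in wt LSK. Erythroid markers ran from 182 to 299.9 CPM in iMLL-ENL total, 261 to 554 in B220 HIGH, 283 to 453 in B220 LOW and 768 to 881 in wt LSK. Plasmacytoid dendritic cell markers ran from 295 to 501 CPM in iMLL-ENL total, 229.7 to 597 in B220 HIGH, 186 to 339 in B220 LOW and 437 to 891 in wt LSK. B lineage markers reached 39.6 CPM in iMLL-ENL total, 110.1 in B220 HIGH, 15.1 in B220 LOW and 272 in wt LSK, and T lineage markers reached 44.2 CPM in iMLL-ENL total, 61.8 in B220 HIGH, 46.1 in B220 LOW and 73.1 in wt LSK. In B220 HIGH the neutrophil markers summed to 640, 17620 and 5445 CPM, and in B220 LOW to 2327, 8263 and 7051 CPM.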
